A study of Mus musculus with 38 samples.

Results

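The genes described here are the 10 that build, load and switch on major histocompatibility complex (MHC) class II in the mouse: H2-Aa, H2-Ab1, H2-Eb1, Cd74, H2-DMa, H2-DMb1, H2-DMb2, H2-Oa, H2-Ob and Ciita. They were taken as a list of symbols, not by their values, and all 10 were matched to 1 identifier each among the 55416 gene identifiers of the count tables. Class II molecules are paired alpha and beta chains that carry peptides from engulfed material to the cell surface and show them to CD4+ T cells. The invariant chain, Cd74, holds the peptide groove closed until H2-DM exchanges its remnant for a peptide, H2-O restrains H2-DM, and Ciita is the transcriptional coactivator on which most of these genes depend. In the order above the tables list them as ENSMUSG00000036594, ENSMUSG00000073421, ENSMUSG00000060586, ENSMUSG00000024610, ENSMUSG00000037649, ENSMUSG00000079547, ENSMUSG00000037548, ENSMUSG00000024334, ENSMUSG00000041538 and ENSMUSG00000022504. The 8 H2 genes lie on chromosome 17, Cd74 on chromosome 18 and Ciita on chromosome 16. In the gut the pathway is best known from dendritic cells, macrophages and B cells, and epithelial cells can also use it.

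RNA came from intestinal tract of mice in a colorectal cancer series in which black rice feeding was set against a control diet. The Apc set held black rice, control and WT libraries, 3 coded F and 3 coded M in each arm, letters that the labels do not expand. In the AOM set there were 3 libraries per diet and code, black rice and control, and 11 of these 12 were used. A further set, called the third set here, had 4 libraries with titles in B and 4 with titles in C. These are called black rice and control here, and they carry no F or M code. Apc and AOM are codes of the sample titles, and Apc is also the symbol of a tumour suppressor gene of the intestine. The labels gave no strain, allele, carcinogen, age, dose or duration, no treatment for WT, and no statement that libraries came from separate mice, so p-values measure the spread between these samples. The letters FMT appear in the name of the table for the third set without explanation.

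Total counts lay between 44.8 and 61.9 M in Apc libraries, between 37.9 and 55.1 M in the 11 AOM libraries used and between 66.6 and 91.1 M in those of the third set. Markers of the labelled tissue were present in these 37 libraries: the 9 epithelial markers summed to between 5298 and 29870 CPM, counts scaled to a common library total, and the 8 smooth muscle markers to between 1982 and 25370 CPM. The library left out, AOM black rice F replicate 3, had 5.37 M reads and 212700 CPM in 6 hepatocyte markers, against at most 130.4 CPM in any other library. In bulk tissue, fewer cells of a type and less RNA per cell cannot be told apart.

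Levels were compared between genes per kilobase of exon. Cd74 stood highest in all 3 sets, with a median of 242 CPM per kb in the Apc set, 143 in the AOM set and 189.5 in the third set. The classical chains followed. In the Apc set the beta chain gene H2-Ab1 had a median of 83.6 CPM per kb, the second beta chain gene H2-Eb1 had 65.7, and the alpha chain gene H2-Aa had 53.1. The H2-DM genes H2-DMb1, H2-DMb2 and H2-DMa had medians of 9.34, 6.13 and 5.49 CPM per kb there. The H2-O genes H2-Ob and H2-Oa and the coactivator Ciita were lowest, at 2.87, 2.49 and 1.75 CPM per kb. In the AOM set the lowest was Ciita as well, at 0.676 CPM per kb, and in the third set it was H2-Ob, at 0.410, and H2-Aa stood just above H2-Eb1. In the Apc and AOM sets the ranges over libraries of every pair of neighbours in each set's order overlapped. In the third set they separated after Cd74, after H2-Ab1, between H2-Eb1 and H2-DMb1, and between H2-DMa and H2-DMb2.

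H2-Ea, whose alpha chain pairs with H2-Eb1, was matched only as H2-Ea-ps, which the annotation calls a polymorphic pseudogene. H2-Ea-ps had at most 0.0940 CPM in any of the 37 libraries, where 3 reads are worth between 0.0329 and 0.0791 CPM, the limit that a count of 0 allows. H2-Eb1 in the same libraries ran from 19.9 to 221 CPM. These reads were made by PCR without molecular identifiers, so such limits cover counting error only.

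The promoters of 7 of the 10 genes could be read, from RefSeq sequences of build GRCm38.p6, which is not the build of the count tables. Class II promoters are known for an X box and a Y box, bound by RFX and NF-Y, on which CIITA is recruited. The windows below are shown because they hold the element that these genes, whose levels differ widely, have in common. Capitals mark a Y box, TGATTGG, and an X box core, AACNGATG, searched on both strands of the 250 bases before and 50 after each start. The motif letters were chosen after these promoters had been read. H2-Aa, on the minus strand, is shown from chr17:34287844-34287923. The others are on the plus strand, H2-Eb1 from chr17:34305756-34305835, H2-DMb1 from chr17:34153078-34153157, H2-DMb2 from chr17:34145107-34145186, H2-Oa from chr17:34092284-34092363 and H2-Ob from chr17:34238796-34238875. Each is 80 bases, 5′ to 3′ in the direction of the gene.
H2-Aa: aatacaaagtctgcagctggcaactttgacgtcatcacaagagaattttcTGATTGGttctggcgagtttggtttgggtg
H2-Eb1: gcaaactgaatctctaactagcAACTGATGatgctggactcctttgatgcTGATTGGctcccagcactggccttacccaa
H2-DMb1: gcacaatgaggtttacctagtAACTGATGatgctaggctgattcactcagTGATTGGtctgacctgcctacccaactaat
H2-DMb2: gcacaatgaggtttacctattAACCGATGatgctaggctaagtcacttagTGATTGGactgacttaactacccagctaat
H2-Oa: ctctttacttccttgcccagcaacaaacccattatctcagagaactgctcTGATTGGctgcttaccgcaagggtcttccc
H2-Ob: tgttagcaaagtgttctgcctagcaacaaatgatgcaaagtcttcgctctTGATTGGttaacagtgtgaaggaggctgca

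The Y box stood in the promoters of 6 genes, and 7.82% of 32851 mouse promoters of the same length hold it. The X box core stood in H2-Eb1, H2-DMb1 and H2-DMb2, and 2.32% of promoters hold it. Both together occur in 0.186% of promoters. The 2 promoters listed for H2-DMa held neither string, and H2-Aa, H2-Oa and H2-Ob held no AACNGATG. Each match is a description of these letters. H2-DMb1 and H2-DMb2, neighbours in the MHC, are alike beyond the promoter. Their transcripts are identical at 68.6% of aligned positions, and 13.7% of the 100-base stretches of H2-DMb1 recur exactly in H2-DMb2, so the split of reads between them is uncertain.

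**Figure D1:**
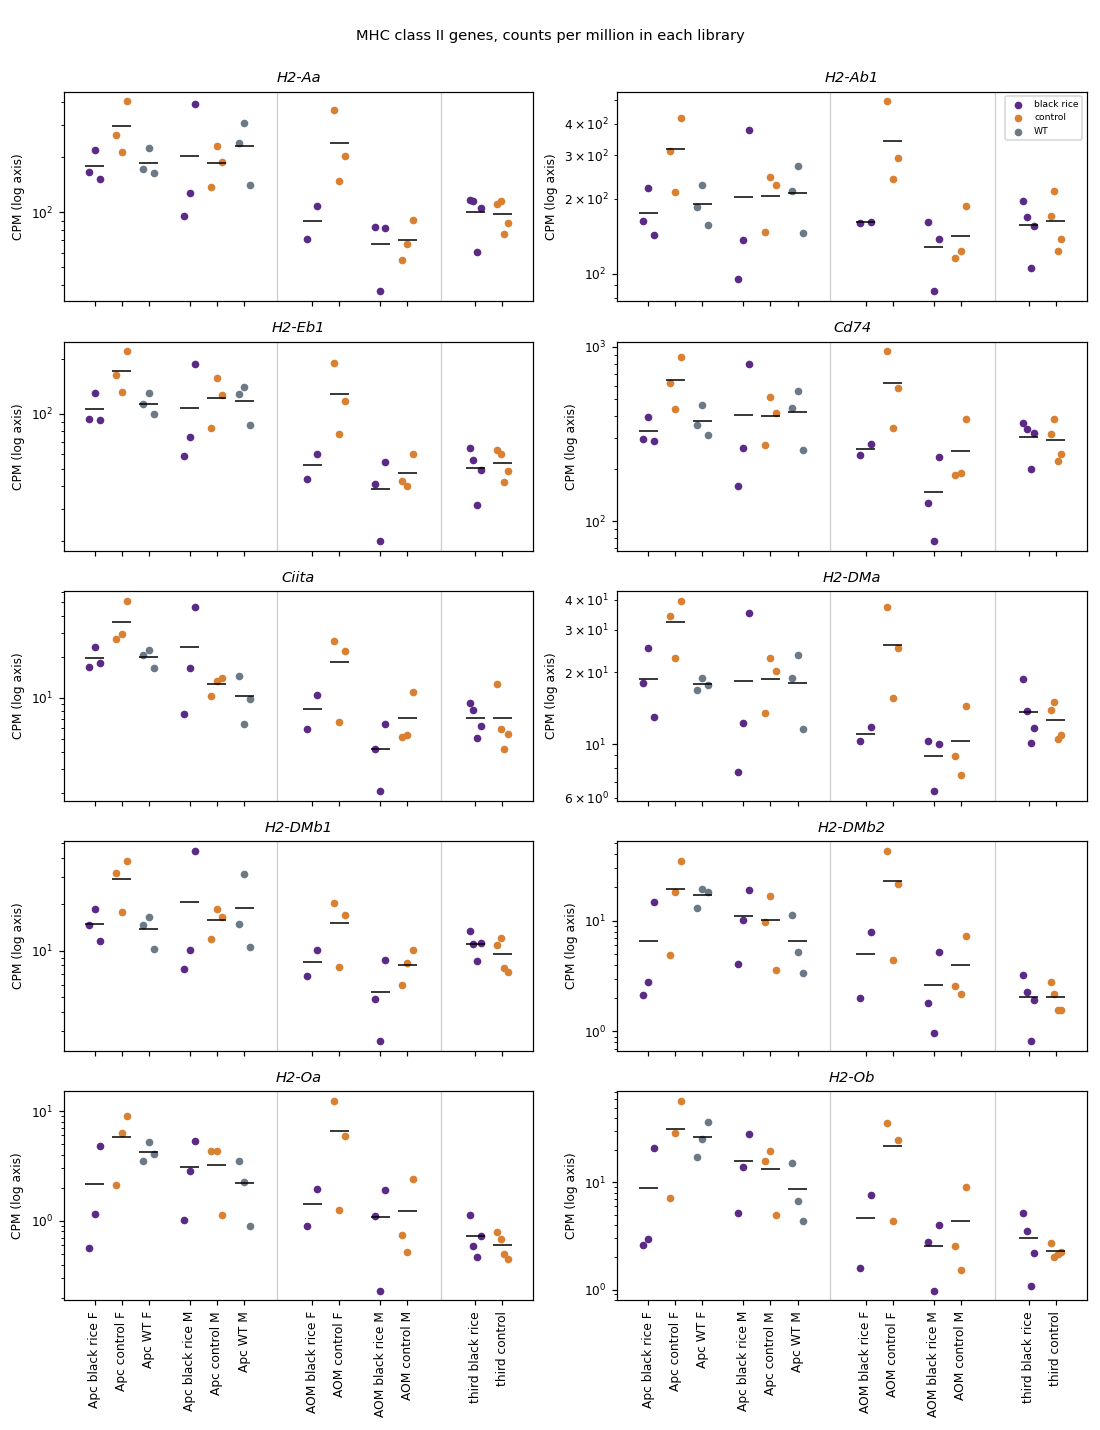
Level of each of the 10 genes in each of 37 libraries, in CPM on log axes that differ between panels. Points are libraries and black bars are group means, for black rice, control and WT libraries with code F, then M, in the Apc set, for the AOM set, and for the third set. The highest Apc black rice M library has 804 CPM of Cd74 and the highest AOM control F library has 948 CPM.

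Black rice was first compared with control diet in the Apc set. No class II gene passed the threshold, an edgeR quasi-likelihood adjusted p under 0.05 over all 21624 genes tested, and none did with DESeq2 or at an unadjusted p under 0.05. Of all genes tested by edgeR, 0.0139% passed, and 10.3% had an unadjusted p under 0.05. Of the estimates, 9 of 10 log2 differences were below 0, with a median of -0.45 beside -0.01 over all genes. Ciita was the exception at 0.02. That median was -0.85 without black rice M replicate 3 and -0.30 without black rice M replicate 1. The smallest adjusted p among the 10 was 0.568. By code, in F libraries 10 of 10 estimates were below 0 with a median of -0.93 (all genes 0.01), and in M libraries 6 were above and 4 below 0 with a median of 0.07 (all genes -0.01). Most of the 10 genes varied together over the Apc libraries, in groups described below, with Pearson r of log2 CPM of 0.919 or more within a group. Counts of genes in any comparison of this set are therefore not counts of separate results.

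Among the class II chains in F libraries, H2-Eb1 had 93.8, 131 and 92.6 CPM on black rice, against 163, 131 and 221 CPM on control diet. The groups did not overlap, by less than 1 CPM. The log2 difference of H2-Eb1 was -0.71 (SE 0.37, 95% interval -1.51 to 0.08, edgeR adjusted p = 0.529). H2-Aa had 166, 217 and 152 CPM on black rice and 265, 214 and 404 CPM on control diet. H2-Ab1, its beta chain partner, had 163, 221 and 144 CPM on black rice and 311, 214 and 423 CPM on control diet. In both, black rice replicate 2 lay inside the control range, and the log2 differences were -0.73 for H2-Aa and -0.86 for H2-Ab1.

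Cd74, the invariant chain, measured 296, 397 and 289.7 CPM in black rice F libraries, against 623, 441 and 882 CPM in control F libraries. Every black rice library was below every control library, and the log2 difference of Cd74 was -1.0 (SE 0.48, 95% interval -2.03 to 0.03, edgeR adjusted p = 0.495). Ciita likewise did not overlap, with 16.9, 23.8 and 18.1 CPM on black rice and 27.0, 29.5 and 51.3 CPM on control diet, a log2 difference of -0.88 (SE 0.44, 95% interval -1.82 to 0.06, edgeR adjusted p = 0.509). Cd74, H2-Eb1 and Ciita were the 3 of 10 genes whose F groups did not overlap with black rice lower, and 19.3% of all genes tested did not overlap in one direction or the other. The edgeR fit called 0% of genes in this comparison and DESeq2 called 0 of the 10. None of the 10 had an unadjusted edgeR p under 0.05, where 10.2% of all genes had one.

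The H2-DM and H2-O genes, which edit the peptide, were spread more widely in some cases. H2-DMa, the alpha chain of H2-DM, had 17.99, 25.1 and 13.03 CPM on black rice and 34.2, 22.8 and 39.5 CPM on control diet. H2-Ob, the beta chain of H2-O, had 2.60, 2.98 and 21.1 CPM in black rice F libraries and 7.12, 28.7 and 58.0 CPM in control F libraries. For H2-Ob, black rice replicate 3 was the highest library of its group and control replicate 1 the lowest of its group. The log2 difference of H2-Ob was -1.82 (SE 0.87, 95% interval -3.67 to 0.03, edgeR adjusted p = 0.491). H2-DMb2 and H2-Oa showed the same libraries high and low, with 2.15, 2.79 and 14.8 CPM of H2-DMb2 on black rice and 4.94, 18.2 and 34.5 CPM on control diet. H2-DMb1 did not: it had 14.7, 18.6 and 11.5 CPM on black rice and 31.8, 17.7 and 38.0 CPM on control diet.

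In the M libraries of the Apc set, the estimates depended on single libraries. Cd74 had 159, 262 and 804 CPM on black rice and 272, 515 and 418 CPM on control diet. Black rice replicate 3 was above every control library and black rice replicates 1 and 2 were below every one. All 10 genes were highest in that replicate among the M black rice libraries, Ciita with 7.64, 16.5 and 46.6 CPM there and 10.4, 13.3 and 14 CPM in control M libraries. Ciita differed by 0.91 (SE 0.44, 95% interval -0.03 to 1.86, edgeR adjusted p = 0.597), and edgeR and DESeq2 called 0 of the 10 genes, with 0 at an unadjusted p under 0.05, against 0.0324% of all genes called by edgeR and 8.54% at that unadjusted p. Without black rice replicate 3 the median of the 10 genes was -0.74 in M libraries and Ciita was at -0.01. Without black rice replicate 1 that median was 0.42.

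The F difference minus the M difference was below 0 for 10 of 10 genes, with a median of -1.18 (all genes 0.01). It was furthest from 0 relative to its error for Ciita, at -1.79 (SE 0.63, 95% interval -3.13 to -0.46, edgeR adjusted p = 0.453), with an unadjusted edgeR p of 0.0119. That was 1 of 10 genes with an unadjusted p under 0.05, where 4.58% of all genes had one in this direction, and 0% of genes were called by edgeR and 0 of the 10 by DESeq2. Without black rice M replicate 3 the median of the 10 was -0.15, so a different response of F and M libraries was not shown.

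Markers of other cell types were set beside these values. The 10 B cell markers summed to 12.2, 9.12 and 176 CPM in black rice F libraries and 48.8, 219.6 and 506 CPM in control F libraries, and none of the 10 markers was at 0 in any of them. Their median log2 difference was -1.99 in F libraries and 0.25 in M libraries, and 0 of 10 passed in either. The 8 T cell markers had a median of -0.97 in F libraries, with sums of 45.1, 47.3 and 26.1 CPM on black rice and 72.3, 56.7 and 106 CPM on control diet. The 5 plasma cell markers summed to 406, 269 and 237 CPM on black rice and 696, 864 and 1711 CPM on control diet in F libraries, without overlap. Their median was -2.34, 4 of 5 had an unadjusted edgeR p under 0.05, and the smallest adjusted p was 0.0538, so none passed. In F libraries 7 of 10 macrophage markers had estimates below 0, with a median of -0.34 and sums of 318, 521 and 298 CPM on black rice and 462, 342 and 425 CPM on control diet. Over both codes macrophage markers had a median of -0.47, with 4 of 10 lower at an unadjusted edgeR p under 0.05. Dendritic cell markers, 7 of 8 below 0 in F libraries, had a median of -0.38 there and sums of 26.9, 34.7 and 32.3 CPM on black rice and 30.1, 39.3 and 60.0 CPM on control diet. None of these markers was at 0 in these F libraries, and none passed. Smooth muscle markers lay the other way, at a median of 0.59, with sums of 5846, 3809 and 3851 CPM on black rice and 2845, 2953 and 3061 CPM on control diet. The part of any of these in the class II values was not tested.

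**Figure D2:**
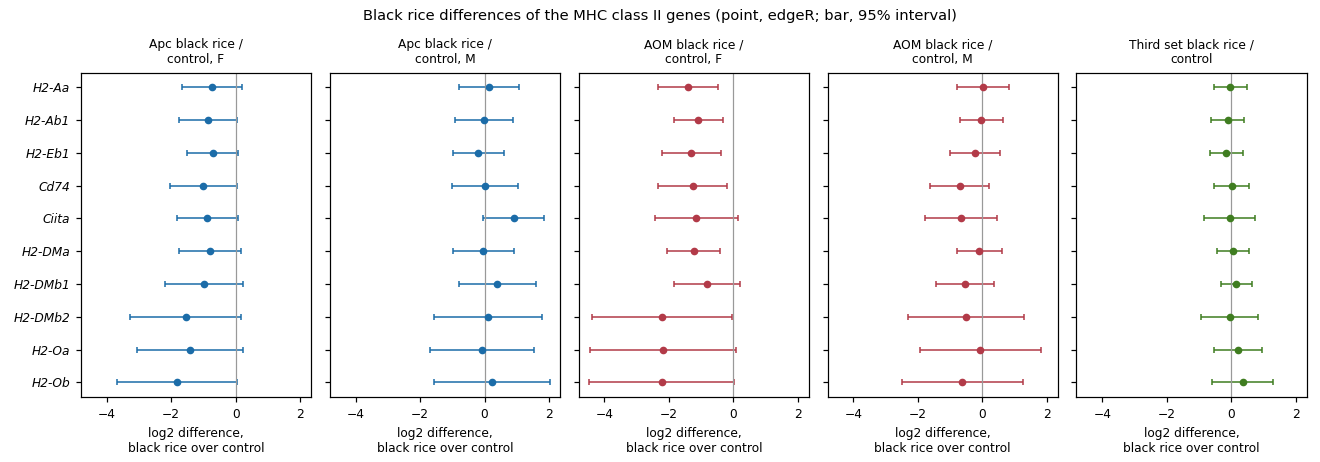
Log2 difference of black rice over control for the 10 genes in the Apc set (F, then M), the AOM set (F, then M) and the third set. Points are edgeR estimates and bars are 95% intervals; the F estimates lie below 0 for 10 of 10 genes in both coded sets, and the third set is centred at -0.01.

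Control F replicate 1 was the highest library of the AOM set for all 10 genes. No class II gene passed the threshold for black rice against control (0% of 21895 genes tested did with edgeR, and 0 of the 10 with DESeq2), although 10 of 10 estimates were below 0, with a median of -0.83 (all genes -0.02). At an unadjusted p under 0.05 edgeR counted 6 of the 10, H2-Aa, H2-Ab1, H2-Eb1, Cd74, Ciita and H2-DMa, and 2.31% of all genes in this direction. The 10 genes varied together over the AOM libraries, with Pearson r of log2 CPM of 0.844 or more. Counts of them in this set are therefore not counts of separate results. Cd74 had the smallest unadjusted p of the 10, 0.0107 by edgeR, with a log2 difference of -0.98 (SE 0.32, 95% interval -1.68 to -0.28, edgeR adjusted p = 1). The adjusted p of 1 in this comparison was shared by all 10 genes.

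By code, Cd74 had 240.3 and 279 CPM in the 2 black rice F libraries used, against 948, 342 and 582 CPM in control F libraries. In M libraries Cd74 had 128, 76.6 and 234 CPM on black rice and 183, 189 and 387 CPM on control diet. The F groups did not overlap and the M groups did. In F libraries the log2 difference of Cd74 was -1.26 (SE 0.48, 95% interval -2.33 to -0.20, edgeR adjusted p = 0.985), and in M libraries it was -0.70 (SE 0.41, 95% interval -1.62 to 0.22, edgeR adjusted p = 0.445).

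Among the chains, H2-Aa had 71.4 and 108 CPM in black rice F libraries and 363, 147 and 203 CPM in control F libraries. In M libraries H2-Aa had 82.5, 36.9 and 82.1 CPM on black rice and 55.0, 67.0 and 90.2 CPM on control diet. The log2 difference of H2-Aa was -1.41 (SE 0.42, 95% interval -2.34 to -0.47, edgeR adjusted p = 0.985) in F libraries, and 0.02 in M libraries. H2-Ab1 had 160.4 and 162 CPM on black rice and 493, 239.9 and 293 CPM on control diet in F libraries, and H2-Eb1 had 44.0 and 59.9 CPM and 191, 77.1 and 117 CPM in the same order. H2-DMa, which partners the H2-DM beta chains, had 10.4 and 11.8 CPM on black rice and 37.3, 15.6 and 25.1 CPM on control diet in F libraries.

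H2-Aa, H2-Ab1, H2-Eb1, Cd74 and H2-DMa were the 5 of 10 genes whose F groups did not overlap with black rice lower, where 19.4% of all genes did not overlap in one direction or the other in this comparison of 2 libraries with 3. In F libraries the median of the 10 was -1.28 (all genes 0.02), and 6 of 10 had an unadjusted edgeR p under 0.05, against 2.16% of all genes in this direction. In M libraries the median was -0.37 (all genes -0.07), 9 of 10 estimates were below 0, and 0 of 10 had an unadjusted p under 0.05, where 13.8% of all genes had one. EdgeR called 0% of all genes in F and 0% in M libraries, and DESeq2 called 0 of the 10 in either.

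Ciita overlapped in both codes, with 5.91 and 10.6 CPM on black rice and 26.2, 6.69 and 22.0 CPM on control diet in F libraries. H2-Ob, at 1.58 and 7.69 CPM in black rice F libraries and 36.0, 4.33 and 24.9 CPM in control F libraries, also overlapped. Control F replicate 2 was the lowest of its group for all 10 genes. The log2 difference of H2-Ob in F libraries was -2.23 (SE 1.02, 95% interval -4.48 to 0.02, edgeR adjusted p = 0.985). H2-DMb1 had 6.84 and 10.04 CPM on black rice and 20.3, 7.79 and 16.9 CPM on control diet in F libraries, H2-DMb2 had 2.01 and 7.94 CPM and 43.0, 4.42 and 21.7 CPM, and H2-Oa had 0.903 and 1.96 CPM and 12.4, 1.26 and 5.88 CPM, and all 3 overlapped. Leaving out control F replicate 1 brought the median of the 10 genes to -0.87 in F libraries. Without control M replicate 3 the M median was 0.10, and without black rice M replicate 3 it was -0.73.

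The F minus M difference of the black rice estimates in the AOM set had a median of -1.11 (all genes 0.08), with 10 of 10 below 0. Unadjusted edgeR p-values under 0.05 belonged to 3 of the 10, H2-Aa, H2-Ab1 and H2-DMa, and to 6.54% of all genes in this direction. H2-Aa had -1.43 (SE 0.55, 95% interval -2.65 to -0.22, edgeR adjusted p = 0.323). None of the 10 passed with edgeR, which called 0% of all genes, or with DESeq2, and without control F replicate 1 the median of the 10 was -0.72. The difference between the AOM and Apc estimates, in 1 joint fit of 23423 genes, had a median of -0.37 (all genes -0.02), and the smallest adjusted p among the 10 was 0.861 by edgeR, for Ciita at -0.89. EdgeR called 0% of genes there, and 0 of the 10 genes passed with DESeq2 or had an unadjusted p under 0.05, as 5.30% of all genes had.

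The B cell markers in the AOM set summed to 17.8 and 94.2 CPM in black rice F libraries and 475, 39.3 and 275 CPM in control F libraries, with none of the 10 at 0. In M libraries they summed to 14.1, 5.22 and 34.2 CPM on black rice and 18.6, 16.4 and 95.6 CPM on control diet. The median log2 difference over both codes was -1.74 for B cell markers and -0.58 for 10 macrophage markers, of which 3 and 6 had an unadjusted edgeR p under 0.05 with black rice lower. Epithelial markers had a median of 0.05. T cell markers summed to 27.35 and 30.3 CPM in black rice F libraries and 93.1, 34.3 and 49.9 CPM in control F libraries. Plasma cell markers summed to 266 and 269 CPM, against 519.5, 330 and 370 CPM, in the same order. Dendritic cell markers summed to 18.9 and 20.1 CPM, against 39.65, 20.4 and 27.4 CPM. Macrophage markers summed to 259.9 and 231.8 CPM, against 428.7, 309.4 and 331.1 CPM. The T cell, plasma cell, dendritic cell and macrophage sums did not overlap between diets in F libraries and overlapped in M libraries. What these cell types contributed to the class II values was not tested.

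In the third set the black rice and control libraries overlapped for all 10 genes, and 4.69% of all genes did not. Estimates were 5 above and 5 below 0, with a median of -0.01 (all genes 0.01). Cd74 had 367, 338, 198 and 320 CPM in black rice libraries and 316, 384, 220.1 and 243 CPM in control libraries, a log2 difference of 0.01 (SE 0.24, 95% interval -0.53 to 0.54, edgeR adjusted p = 0.995). Ciita had 9.19, 8.12, 5.04 and 6.27 CPM in black rice libraries and 12.7, 5.96, 4.25 and 5.45 CPM in control libraries, a difference of -0.05 with a 95% interval of -0.84 to 0.75. H2-Ob was furthest from 0, with 5.23, 3.51, 1.08 and 2.18 CPM in black rice libraries and 2.72, 1.998, 2.14 and 2.24 CPM in control libraries and a difference of 0.35 (SE 0.42, 95% interval -0.58 to 1.29, edgeR adjusted p = 0.862). Black rice replicate 3 was the lowest library of the set for 7 of the 10 genes, all but Ciita, H2-DMb1 and H2-Oa. The intervals of H2-Aa, H2-Ab1, H2-Eb1, Cd74, H2-DMa and H2-DMb1 reached no further than -0.67 and 0.64, so a change of 1 log2 unit in either direction lay outside them. EdgeR called 0% of 20831 genes, and none of the 10 passed with DESeq2 or at an unadjusted p under 0.05, where 7.94% of all genes did.

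The WT libraries of the Apc set allow the control diet group to be set against them, although the arms share libraries and the comparisons are not independent. Control against WT gave 10 of 10 estimates above 0, with a median of 0.34 (all genes 0.00) and a smallest adjusted p of 0.999 by edgeR. Black rice against WT gave 8 of 10 below 0, with a median of -0.19 (all genes 0.00). Cd74 had 355, 464 and 313 CPM in WT F and 446, 560.3 and 256 CPM in WT M libraries, and its log2 difference was 0.29 for control over WT and -0.20 for black rice over WT. The black rice median was -0.57 without black rice M replicate 3 and 0.00 without WT M replicate 2, and the control median 0.16 without WT M replicate 3. Ciita was above 0 in both, at 0.53 for control over WT and 0.55 for black rice over WT. None of the 10 passed with edgeR, which called 0% of genes for control and 0.0139% for black rice against WT, or with DESeq2. None had an unadjusted p under 0.05, where 4.25% of all genes had one for control against WT and 8.17% for black rice against WT.

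The code itself was compared next, since F and M label each arm of the coded sets. F minus M over both diets of the AOM set was above 0 for 10 of 10 genes, with a median of 0.998 (all genes -0.01). Without control F replicate 1, the highest AOM library for all 10 genes, that median was 0.77. By edgeR 9 of 10 had an unadjusted p under 0.05, against 5.60% of all genes in this direction, but none passed after adjustment, where 0.0365% of all genes did, and none with DESeq2. The 10 genes varied together in this set, so the 9 are not separate results. H2-Aa differed by 0.99 (SE 0.27, 95% interval 0.40 to 1.59, edgeR adjusted p = 0.571) and Cd74 by 1.001 (SE 0.31, 95% interval 0.32 to 1.68, edgeR adjusted p = 0.571). In control libraries alone, 4 genes had every F library above every M library, H2-Aa, H2-Ab1, H2-Eb1 and H2-DMa, and 6.58% of all genes did. H2-Ab1, for example, had 493, 239.9 and 293 CPM in control F and 116, 123 and 187 CPM in control M libraries. The B cell markers had estimates in the same direction, 10 of 10 with an unadjusted p under 0.05 and a median of 2.16, as did 8 of 10 macrophage markers, with a median of 0.90; their part in the class II difference was not tested.

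In the Apc set the median F minus M difference of the 10 genes was 0.08 (all genes 0.01), and Ciita had the largest estimate of the 10. That median was -0.03 without black rice M replicate 1 and 0.34 without black rice M replicate 3. Ciita had 27.0, 29.5 and 51.3 CPM in control F and 10.4, 13.3 and 14 CPM in control M libraries. In WT libraries Ciita had 20.5, 22.5 and 16.6 CPM in F and 14.5, 6.47 and 9.84 CPM in M. The F and M libraries did not overlap in either arm, and they overlapped on black rice. H2-DMa was the other gene without overlap in control libraries, where 8.45% of all genes had F higher, and H2-DMb2 and H2-Ob the others in WT libraries, where 6.77% did. Over the 3 arms Ciita differed by 0.63 (SE 0.26, 95% interval 0.08 to 1.17, edgeR adjusted p = 0.275), with an unadjusted p of 0.0265 by edgeR, and it was 1 of 10 genes under 0.05 there, against 6.72% of all genes in this direction. H2-Ab1 differed by -0.04. The share of genes called by edgeR was 0.0740%, and 0 of the 10 passed with edgeR or DESeq2.

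Within a library the 10 genes did not behave as 1 unit. In the Apc set H2-Aa, H2-Ab1, H2-Eb1, Cd74, H2-DMa and H2-DMb1 varied together from library to library, with Pearson r of log2 CPM between 0.919 and 0.993 over 18 libraries. H2-DMb2, H2-Oa and H2-Ob formed a second group, joined by H2-Eb2, a beta chain gene outside the list, with r between 0.957 and 0.991. Between the 2 groups r lay between 0.218 and 0.508. The groups were drawn after the values were seen, and the libraries share depth, diet and code, so these are descriptions. In the AOM set the 2 groups were not separate, with r between 0.851 and 0.953 over 11 libraries, and in the third set r between them ran from 0.575 to 0.974 over 8.

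In the Apc set, correlations with B cell transcripts separated the groups. There r with the summed B cell markers was 0.986 for H2-Ob, 0.976 for H2-DMb2 and 0.946 for H2-Oa, and between 0.213 and 0.395 for the 6 genes of the first group. The first group had higher r with T cell markers, from 0.708 to 0.850, with macrophage markers, from 0.673 to 0.758, and with dendritic cell markers, from 0.608 to 0.759. H2-DMb2, H2-Oa and H2-Ob had 0.224 to 0.264 with T cell markers and -0.137 to 0.012 with macrophage markers. With dendritic cell markers these genes had 0.533 to 0.572, just below the first group. For Ciita the highest r was with dendritic cell markers, at 0.856. In the other sets the first group had high r with B cell markers too. In the AOM set r with them lay between 0.885 and 0.954 for the first group and between 0.964 and 0.990 for H2-DMb2, H2-Oa and H2-Ob. In the third set it lay between 0.758 and 0.884 for the first group and between 0.838 and 0.906 for those 3 genes. H2-O is known in the mouse for its expression in B cells. The H2-DM beta chain genes fell in different groups. Their ratio, H2-DMb2 over H2-DMb1 in CPM, ran from 0.146 to 1.78 in the Apc set, from 0.260 to 2.12 in the AOM set and from 0.0960 to 0.261 in the third set.

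**Figure D3:**
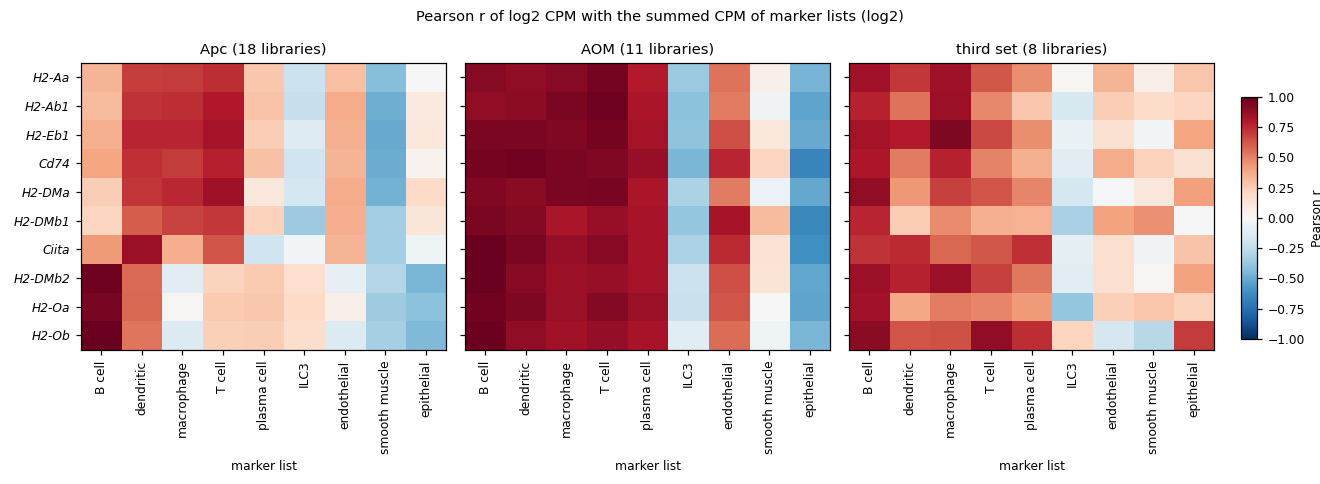
Pearson r between log2 CPM of each gene (rows) and the log2 summed CPM of marker lists (columns), in the 18 Apc, 11 AOM and 8 libraries of the third set. In the Apc panel the bottom 3 rows are dark for B cell markers, at 0.946 or above, and the upper 6 are at 0.395 or below; in the AOM panel all rows are dark for B cell, dendritic, macrophage and T cell markers.

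**Figure D4:**
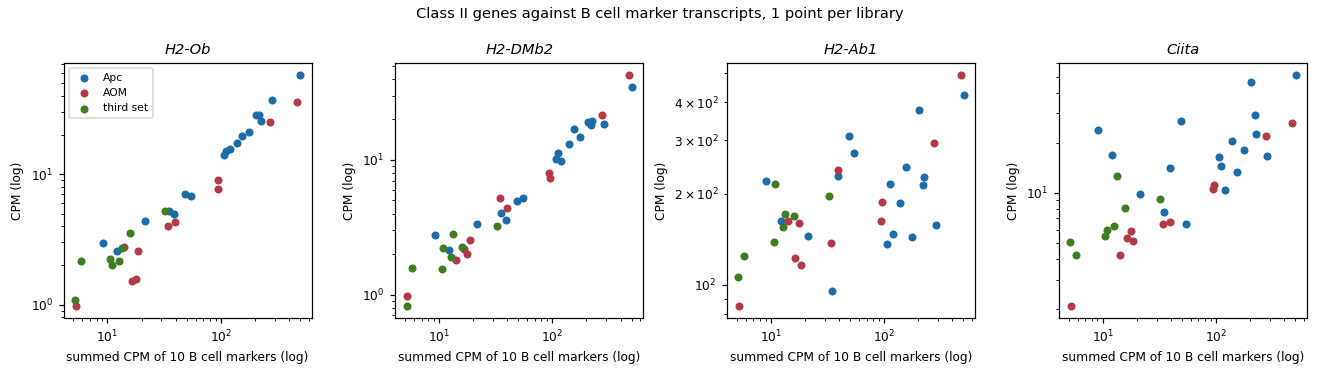
CPM of H2-Ob, H2-DMb2, H2-Ab1 and Ciita against the summed CPM of 10 B cell markers, both on log axes, with 1 point per library coloured by set. B cell sums run from 9.12 to 506 CPM in the Apc set, from 5.22 to 475 in the AOM set and from 5.16 to 32.3 in the third set.

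The span over libraries followed the same split. In the Apc set the highest library was 3.79 to 5.83 times the lowest for the 6 genes of the first group, 7.94 times for Ciita, and 15.9 to 22.4 times for H2-Oa, H2-DMb2 and H2-Ob. In the AOM set the span was 5.80 to 12.4 times for the first group, 12.6 times for Ciita and 37.0 to 54.1 times for the second. In the third set it was 1.84 to 2.06 times for the first group, 2.98 times for Ciita and 2.51 to 4.83 times for the second.

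Ratios between class II transcripts within a library lay at different levels in the sets. H2-Aa over H2-Ab1, the alpha and beta chains of 1 molecule, lay between 0.830 and 1.12 in CPM in the Apc set, between 0.434 and 0.737 in the AOM set, and between 0.535 and 0.681 in the third set. No library of the AOM set or of the third set reached the lowest Apc library. H2-Eb1 over H2-Ab1 showed the same order, from 0.499 to 0.644, from 0.234 to 0.401 and from 0.278 to 0.369. Cd74 over H2-Ab1 overlapped between sets, from 1.66 to 2.13 in Apc, from 0.789 to 2.07 in AOM libraries and from 1.75 to 2.06 in the third set. The lowest of these ratios were those of AOM black rice M replicates 1 and 2, whose M group had 162, 85.0 and 138 CPM of H2-Ab1 beside 128, 76.6 and 234 CPM of Cd74. The sets were made as separate tables, so study set and table cannot be told apart and no test was made.

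**Figure D5:**
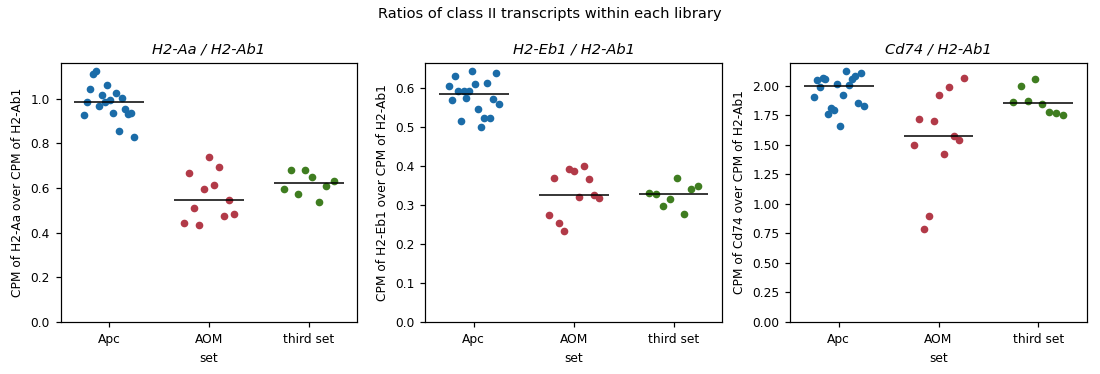
Ratio of the CPM of H2-Aa, H2-Eb1 and Cd74 to that of H2-Ab1 in each library of the Apc set, the AOM set and the third set, on axes that start at 0. Points are libraries and black bars are medians. For H2-Aa the median is 0.985 in the Apc set, 0.545 in the AOM set and 0.621 in the third set.

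Among 13012 other genes whose mean log2 CPM was 1 or more, those most like the mean of the class II genes were ranked by the lowest r over the 3 sets. That mean took genes with a mean of at least 1 CPM in a set. It held all 10 in the Apc and AOM sets and 9 in the third set, without H2-Oa. The first 8 were Cd52, Ncf1, Sash3, Coro1a, Nckap1l, Ptpn7, Arhgdib and Nrros, with a lowest r between 0.871 and 0.924. Cd52 encodes a surface glycoprotein of leukocytes, Ncf1 a component of the oxidase by which phagocytes make superoxide, and Coro1a an actin binding protein of leukocytes. Cd52 had r of 0.924 in the Apc set, 0.981 in the AOM set and 0.936 in the third set, over 18, 11 and 8 libraries. Most like Ciita alone were Nckap1l, Tnfaip2, Ppp1r16b, Arhgap30 and Nrros, with a lowest r between 0.763 and 0.848.

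The rest of the pathway was followed through 5 lists in the same edgeR fits. Over all genes tested, 10.3% in the Apc set, 3.06% in the AOM set and 7.94% in the third set had an unadjusted p under 0.05 for black rice against control. Of 9 genes that prepare peptides or turn class II over (Ctss, Ctsl, Ctsb, Ctsd, Lgmn, Ifi30, Sppl2a, Marchf1 and Marchf8), 0 passed for black rice against control in any set, and 1, 1 and 0 had an unadjusted p under 0.05 in the Apc set, the AOM set and the third set. Their median was -0.26 in the Apc set, -0.04 in the AOM set and -0.03 in the third set. Lgmn, a lysosomal endopeptidase, had -0.65 (SE 0.22, edgeR adjusted p = 0.367) in the Apc set. Marchf1, the ubiquitin ligase that removes class II from the surface, had -1.07 (SE 0.48, edgeR adjusted p = 1) in the AOM set. Of 7 genes of the RFX, NF-Y and CREB factors that meet Ciita at the promoter, 0 passed and 2, 0 and 0 had an unadjusted p under 0.05 in the Apc set, the AOM set and the third set, with medians of -0.09, -0.06 and -0.06 in the same order of sets, and Rfxap had -0.25 (SE 0.10, edgeR adjusted p = 0.422) in the Apc set.

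Interferon gamma is the known inducer of Ciita outside professional antigen presenting cells. Of 8 genes of its axis 0 passed and 1, 0 and 3 had an unadjusted p under 0.05 in the Apc set, the AOM set and the third set, with medians of 0.28 in the Apc set, -0.12 over the 7 genes tested in the AOM set, and -0.15 in the third set. In the Apc set 5 of 8 estimates were above 0, and Jak2, a kinase of the interferon gamma receptor, had the smallest p there, with 0.31 (SE 0.09, edgeR adjusted p = 0.307). Ifng itself had 1.48 (SE 1.02, edgeR adjusted p = 0.633) in the Apc set, a value named after it was seen, and -0.87 (SE 0.31, edgeR adjusted p = 0.582) in the third set. Irf1, a transcription factor of this axis, had 0.40 (SE 0.27, edgeR adjusted p = 0.626) in the Apc set. Of 6 costimulatory genes 0 passed and 2, 1 and 1 had an unadjusted p under 0.05 in the Apc set, the AOM set and the third set, with medians of -0.22, -0.55 and -0.19. Cd86, a ligand of CD28 on antigen presenting cells, had -0.56 (SE 0.24, edgeR adjusted p = 0.448) in the Apc set, -0.89 (SE 0.35, edgeR adjusted p = 1) in the AOM set and -0.46 (SE 0.19, edgeR adjusted p = 0.613) in the third set. Cd274, which encodes PD-L1, had 0.86 (SE 0.28, edgeR adjusted p = 0.333) in the Apc set.

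MHC class I shows peptides made inside the cell to CD8+ T cells. Of 11 class I genes 0 passed and 0, 2 and 5 had an unadjusted p under 0.05 in the Apc set, the AOM set and the third set. Their median was -0.03 in the Apc set, -0.10 in the AOM set and -0.34 in the third set, where 10 of 11 estimates were below 0. Nlrc5, the class I counterpart of Ciita, had 0.67 (SE 0.49, edgeR adjusted p = 0.652) in the Apc set, -0.71 (SE 0.29, edgeR adjusted p = 1) in the AOM set and -0.52 (SE 0.17, edgeR adjusted p = 0.545) in the third set. Tap1, which carries peptides into the endoplasmic reticulum for class I, had -0.69 (SE 0.20, edgeR adjusted p = 0.515) in the third set.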

How the data were processed

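RNA from mouse intestinal tract was extracted with Trizol and captured on oligo(dT) beads, per the labels' protocols. The authors deposited 3 tables of raw read counts per gene, one per set. Per the file headers, the tables of the AOM set and the third set were made with featureCounts 2.0.1 on Ensembl annotation release 104, build GRCm39, counting read pairs over exons with neither a strand option nor one for reads that map to several places. Reads of overlapping or antisense genes therefore cannot be told apart there. The header of the Apc table holds no command, and its column names call the tissue colon. The submitters' processing notes name FastQC, fastp, HISAT2, SAMtools, featureCounts and Subread. Of 55416 identifiers, 52083 were matched to a symbol and 3333 were not, and 0 value columns were without a sample.

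Counts were fitted per table with the edgeR 4.0.16 quasi-likelihood test (R 4.3.3, limma 3.58.1), TMM scaling and filterByExpr, with 1 coefficient per group. Tests were two-sided with Benjamini-Hochberg adjustment over all genes tested, and all 10 class II genes passed the filter in each fit. AOM and Apc were compared in 1 joint fit. Procedures were tested on simulated data. DESeq2 1.42.0, RLE scaling, no filter, a replicate block, each library left out in turn and all 12 AOM libraries were alternatives. CPM used each library's total count, and CPM per kb used GENCODE vM21 exon lengths. All 10 genes are named throughout, up to 3 genes of smallest p per pathway list and comparison are named, and genes of similar pattern are those ranked highest by lowest r over the sets. The genes and lists were chosen with earlier results of these data known. Depth is given with the results, and reads carried no molecular identifiers.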

Additional observations from a re-analysis of the deposited data

Results flagged for a closer look

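AOM black rice F replicate 3, which was not used in the comparisons, had a summed level of 212700 CPM for 6 hepatocyte markers, and the other 37 libraries had at most 130.4 CPM. Its 9 epithelial markers summed to 425 CPM, and its depth was 5.37 M reads. The class II genes in it had 84.7 CPM of Cd74, 65.9 CPM of H2-Ab1, 22.7 CPM of H2-Aa, 17.3 CPM of H2-Eb1 and 2.05 CPM of Ciita. The Cd74 level was above that of 1 of the 11 other AOM libraries, black rice M replicate 2. No library of the third set, the only set with groups of 4, stood apart from its group for any class II gene in 20 tests of the highest or lowest library. Of 30 tests of the difference between F and M or between sets, 0 passed the threshold by edgeR and 0 by DESeq2. By edgeR 4 had an unadjusted p under 0.05, Ciita in the Apc set and H2-Aa, H2-Ab1 and H2-DMa in the AOM set. Over all genes 4.58% in the Apc set and 6.54% in the AOM set had one in this direction. In the joint fit 5.30% had one in either direction. The AOM genes named varied together and are not separate results.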

How the results depend on the processing

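No class II gene passed an adjusted p under 0.05 under any alternative run, and the lowest adjusted p over 2101 refits of single genes, edgeR and DESeq2 included, was 0.109. Among those refits 125 estimates changed sign, 30 of them in Apc M, 27 in Apc F against M and 24 in the third set. Counts over all genes depended on the tool. DESeq2 called 202 genes for Apc black rice against control where edgeR called 3, 201 in F against 0, 151 in M against 7 and 132 for F minus M against 0. It called 24 for control against WT where edgeR called 0, 72 for black rice against WT where edgeR called 3, and 528 for Apc F against M where edgeR called 16. In the AOM set DESeq2 called 13 genes over both codes, 3 in F, 255 in M and 175 for F minus M, each against 0 by edgeR, and 74 for F against M, against 8. It called 136 in the third set and 4 in the joint fit, against 0 and 0. The cause was not tested.

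Without the low-count filter the Apc counts were 23 for black rice against control, 15 in F, 16 in M, 6 for F minus M and 6 against WT. With RLE size factors black rice against WT had 0 calls. Leaving out 1 library at a time gave 1 to 6 calls over all genes for Apc black rice against control, 0 to 4 in F, 0 to 2 in M, 0 to 7 for F minus M, 0 to 2 against WT and 10 to 67 for F against M. It gave 0 to 1 in the third set and 6 to 9 for AOM F against M. Where it left AOM black rice F with 1 library, that library is assumed to vary like the other groups. With all 12 AOM libraries the median of the class II genes was -0.91 over both codes, -1.42 in F and -0.34 in M. The joint fit was not run with libraries left out or with a replicate block.

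Same-numbered libraries of different groups correlated over 0.1 in 13 of 45 Apc, 7 of 15 AOM and 1 of 4 pairs in the third set. Differently numbered libraries did so in 33 of 90, 7 of 30 and 6 of 12 pairs. In the AOM set the median r was 0.0955 for same-numbered and -0.0417 for differently numbered pairs. Pairing by number was therefore not shown in the Apc set or the third set, and was left undecided in the AOM set. With the replicate block, 0 genes were called in Apc M, 0 for black rice against WT, 10 for Apc F against M and 203 for AOM F minus M, and 0 class II genes in each comparison.

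With 2 or 3 libraries a group, every 95% interval of a class II gene within code F or code M spanned more than 1 log2 unit.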
